A study of Mus musculus with 18 samples.

Results

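Bulk RNA-Seq of splenic B cells was compared between mice treated with OVA NPs, polymer particles that carry the egg allergen ovalbumin (OVA), and mice treated with soluble OVA. The libraries were chosen by their titles, as the 3 splenic B cell libraries of OVA NP–treated mice and the 3 of soluble OVA–treated mice, and they are 6 of the 18 libraries in the series. All mice were female BALB/cJ mice between 10 and 12 weeks old that had been sensitized with 20 μg OVA and 1 mg alum i.p. on days 0 and 14, which gives an allergic mouse with OVA-specific antibodies. Treatment was given i.v. on days 28 and 42 as 2.5 mg OVA NPs or 100 μg soluble OVA, and the PBS group, used here as a reference, received 100 μL PBS. By the particle loading stated in the study's methods, both OVA doses held the same amount of allergen, so the comparison asks what the particle form added. Empty particles were not among these groups, so the form of the allergen and the polymer cannot be told apart. Spleens were taken on day 44, and a magnetic kit that labels and holds back all other cells left the B cells untouched. Each library carries its own replicate number and the labels do not say how many mice it came from, so the p-values measure the spread between these libraries.

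The OVA NP libraries held 16813558, 17359295, and 25474996 counts, and the soluble OVA libraries held 26167308, 15670042, and 18204020. *Ms4a1*, *Cd79a*, and the other B cell identity genes had no DEG among 10 tested, and the interval of every one of the 10 lay within 1.5-fold of no difference. The estimate was lower with OVA NP for 9 of the 10. Levels are given as CPM (counts scaled to a common library size, with TMM factors) in replicates 1, 2, and 3. Fold changes are OVA NP over soluble OVA on the log2 scale with the SE of the edgeR fit, and a differentially expressed gene (DEG) had an adjusted p under 0.05 and a log2 fold change beyond 0.25 either way.

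Interferons act on their target genes through the interferon-stimulated response element and the gamma-activated sequence in front of them. Among these targets are the immunity-related and guanylate-binding GTPases, which act on vacuoles that hold intracellular microbes. Germinal centers are the structures in which antigen-activated B cells mutate and select their antibody genes, and MEF2B and BCL6 are among the transcription factors that maintain them. Heat shock proteins are chaperones that fold other proteins.

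Splenic B cells differed in few genes between the 2 forms of OVA. Of 13840 genes tested, 33 were DEGs (0.238%), with 19 higher in OVA NP–treated mice (0.137%) and 14 lower (0.101%). The median absolute log2 fold change of the DEGs was 0.66. The genes that were higher included *Nlrc5* and 4 interferon-induced GTPases, along with 3 chaperones, while those that were lower included the germinal center factor *Mef2b*, the cytokine inhibitor *Socs3*, and the amino acid oxidase *Il4i1*. For 9628 genes (69.6%), the 95% interval of the fold change lay within 1.5-fold either way, and the median half-width of these intervals over all tested genes was 0.23. By the same test, OVA NP and PBS differed in 15% of 14200 genes and soluble OVA and PBS in 17.2% of 14128. These 2 comparisons share their OVA libraries with the comparison of the 2 forms, so the PBS values below are set side by side and are not independent of it. The libraries of the 2 groups did not overlap in any of the 33 genes, as in 14.6% of all tested genes. The count of 33 depended on single libraries. It was 7 without soluble OVA replicate 1, of which 6 were among the 33, and 10 without soluble OVA replicate 3, all 10 among the 33. Without OVA NP replicate 2 there were 0 DEGs by edgeR, with 660 genes at an unadjusted p under 0.05 and a smallest adjusted p of 0.136, while the 5 remaining libraries gave 38 DEGs with DESeq2, 25 of them among the 33. All 33 genes kept their direction in each of the 6 fits that left out 1 library. This largely follows from groups that do not overlap, so it adds no support. DESeq2 called all 33 among 83 DEGs.

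**Figure D1:**
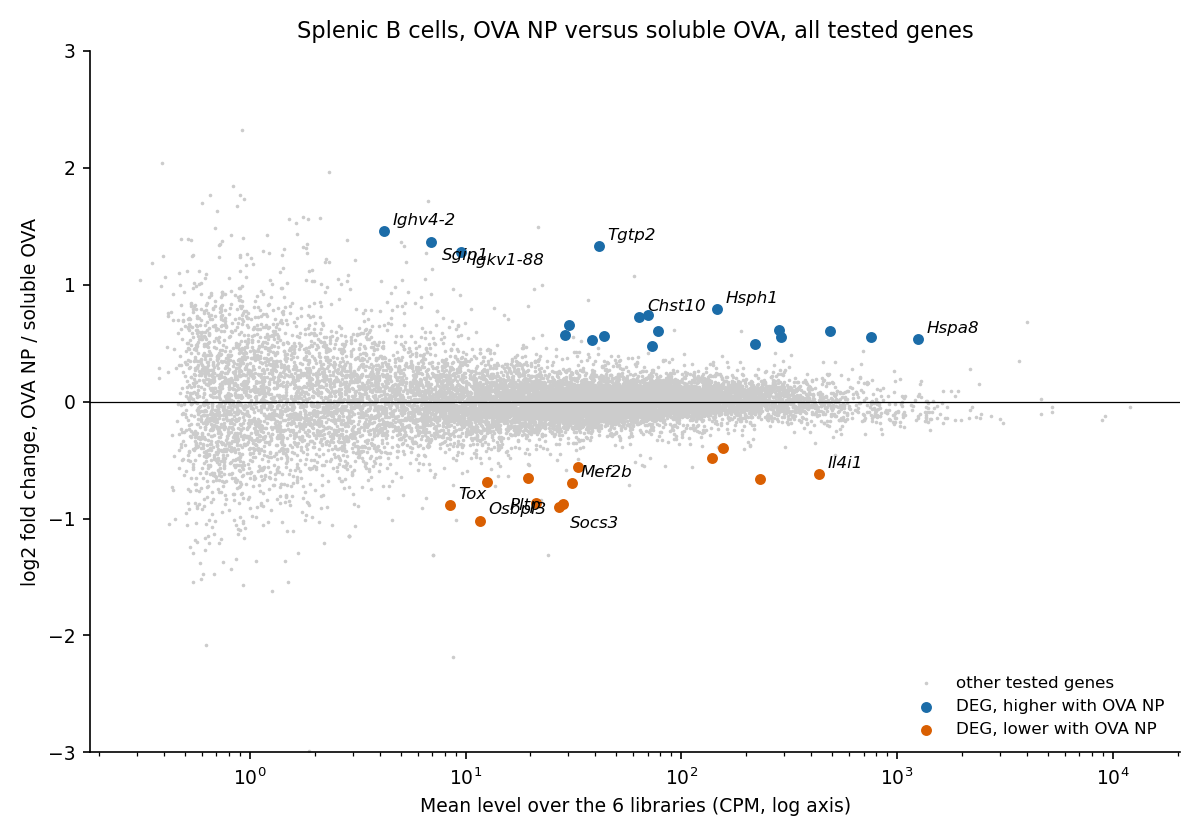
Each point is 1 of the tested genes, with its mean level over the 6 splenic libraries in CPM on a log axis and the log2 fold change of OVA NP over soluble OVA. The 19 DEGs that were higher (blue) and the 14 that were lower (orange) lie outside the bulk of the genes, and 1 gene beyond 3 on the log2 scale, *Gm49388*, is not drawn.

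Interferon-induced GTPases were prominent among the genes that were higher in OVA NP–treated mice. Of 14 tested members, 4 were DEGs, all of them higher, where 0.137% of all tested genes were. At an unadjusted p under 0.05, 10 of the 14 were higher and 0 were lower, against 4.28% and 4.39% of all tested genes. All 14 had a log2 fold change above 0, and their median was 0.44, where the median over all tested genes was -0.0035. The 4 DEGs were *Igtp*, *Irgm2*, *Tgtp2*, and *Gbp7*. Here and below, bulk libraries cannot tell a change in the number of cells that express a gene from a change in the RNA per cell. The count of 4 fell to 1 without soluble OVA replicate 1 and to 0 without soluble OVA replicate 3 or OVA NP replicate 2, while the median stayed between 0.43 and 0.47 in all 6 fits that left out a library.

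The 120 bases before the start of each of these 4 genes are shown because they hold matches to motifs known to mediate the response to interferons. They were read from RefSeq on GRCm38.p6 and run 5′ to 3′ on the strand of the gene. Capitals mark matches on either strand to the interferon-stimulated response element (GAAA, any 2 bases, and GAAA again), the gamma-activated sequence (TTCNNNGAA), and a pair of heat shock units (GAANNTTC).
Igtp, chr11:58199436-58199555, plus strand: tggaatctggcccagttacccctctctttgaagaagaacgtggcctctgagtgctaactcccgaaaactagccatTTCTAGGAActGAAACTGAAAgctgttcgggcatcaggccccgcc
Irgm2, chr11:58214857-58214976, plus strand: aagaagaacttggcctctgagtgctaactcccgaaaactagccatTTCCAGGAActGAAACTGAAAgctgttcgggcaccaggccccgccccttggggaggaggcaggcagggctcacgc
Tgtp2, chr11:49064213-49064332, minus strand: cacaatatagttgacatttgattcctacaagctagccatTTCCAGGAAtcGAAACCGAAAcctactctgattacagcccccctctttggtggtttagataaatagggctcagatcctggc
Gbp7, chr3:142530216-142530335, plus strand: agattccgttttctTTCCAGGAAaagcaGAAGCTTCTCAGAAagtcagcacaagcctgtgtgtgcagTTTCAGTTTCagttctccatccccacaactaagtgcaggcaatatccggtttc

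Within 250 bases before the start, all 4 genes held the response element, which was present in 2.98% of 32851 RefSeq promoter windows of this length, and all 4 held the gamma-activated sequence, which was present in 7.02%. Both were present in 0.332% of windows. The 4 genes come from a list of known interferon targets, so such matches were likely in advance and add no support to the comparison of treatments. The response element began 34 bases before the start in *Igtp*, 64 in *Irgm2*, 70 in *Tgtp2*, and 53 in *Gbp7*. In *Igtp*, *Irgm2*, and *Tgtp2* the gamma-activated sequence lay just before it, with 2 bases between them. The sequences of *Igtp* and *Irgm2* around these sites are nearly the same, so their matches are not independent of each other. In *Gbp7*, 2 matches to the gamma-activated sequence lay further upstream, and 1 of them overlaps the heat shock match. Among the DEGs that were lower with OVA NP, *Socs3* also held the gamma-activated sequence, which began 154 bases before its start. A match is a description of the letters in the window and does not show that the site was bound in these cells.

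*Igtp* lies on chromosome 11 (58199556 to 58207591, plus strand) and overlaps *Irgm2* (58199618 to 58222782) on the same strand. *Igtp*, which encodes the GTPase IRGM3, was at 34.9, 39.9 and 36.4 CPM with OVA NP, 25.3, 23.6 and 21.9 with soluble OVA, and 29.4, 31.2 and 25.5 with PBS. The OVA NP libraries lay above all others, and the soluble OVA libraries lay below those of PBS (log2 fold change 0.66 ± 0.091, adjusted p = 0.00686). *Irgm2* was at 31.1, 39.0 and 33.3 CPM with OVA NP and at 23.6, 21.6 and 24.9 with soluble OVA (log2 fold change 0.57 ± 0.10, adjusted p = 0.0347). Its PBS levels of 30.1, 31.1 and 26.1 lay between the 2 groups' means. Of the 100-base windows of *Igtp* transcripts, 5.16% also occurred in *Irgm2*.

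*Tgtp2*, a GTPase first found in T cells (chromosome 11, 49057194 to 49064206, minus strand), had the largest fold change of the 4. It was at 65.4, 68.3 and 45.1 CPM with OVA NP, 24.5, 24.5 and 22.2 with soluble OVA, and 26.8, 30.0 and 22.7 with PBS (log2 fold change 1.33 ± 0.15, adjusted p = 0.00823). The lowest OVA NP library, replicate 3, was above every soluble OVA and PBS library. *Tgtp2* and its neighbour *Tgtp1* share 76.8% of the 100-base windows of *Tgtp2*, so reads could be split between them. *Tgtp1* itself was at 10.5, 16.1 and 4.10 CPM with OVA NP and 2.54, 3.33 and 3.53 with soluble OVA, and it did not pass the edgeR test (adjusted p = 0.43), although DESeq2 called it together with the 4 DEGs. *Gbp7*, a guanylate-binding protein on chromosome 3 (142530342 to 142550149), was at 46.8, 47.5 and 41.7 CPM with OVA NP and 31.3, 33.5 and 29.9 with soluble OVA (log2 fold change 0.53 ± 0.084, adjusted p = 0.016). Its PBS levels of 31.0, 31.6 and 23.9 were in the range of soluble OVA or below it. The other 10 GTPases did not pass the edgeR test, with log2 fold changes between 0.12 for *Gbp5* and 2.33 for *Iigp1*. *Iigp1* was under 2.5 CPM in every library.

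Of 24 tested interferon-stimulated genes of the antiviral response, 1 was a DEG, which was higher, and 12 were higher at an unadjusted p under 0.05 with 0 lower, against 4.28% and 4.39% of all tested genes. Their median log2 fold change was 0.40, and it was 0.21 without OVA NP replicate 3 and 0.50 without OVA NP replicate 1. Among the others, *Stat2*, a factor that carries the interferon signal to the nucleus, was at 123, 134 and 142 CPM with OVA NP and 129, 134 and 141 with soluble OVA, a log2 fold change of -0.01 with an interval of -0.16 to 0.15. *Ifit1*, which binds viral RNA, was at 2.94, 3.99 and 4.75 CPM with OVA NP and 2.39, 1.73 and 1.38 with soluble OVA (adjusted p = 0.203). *Dhx58*, *Oas1a*, and *Stat2* had log2 fold changes of -0.06, -0.05, and -0.01, the only 3 of the 24 that were not above 0.

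Against PBS, the medians of the 2 forms of OVA lay on opposite sides of 0 in both interferon lists. The median log2 fold change of the 14 GTPases was 0.24 for OVA NP and -0.26 for soluble OVA, and that of the 24 antiviral genes was 0.21 and -0.22. Summed over the antiviral list, the libraries were at 814, 950.0 and 1067 CPM with OVA NP, 766, 746 and 740.2 with soluble OVA, and 904, 892 and 748 with PBS. The OVA NP range overlapped that of PBS and lay above that of soluble OVA. *Nlrc5*, which switches on the genes of MHC class I (chromosome 8, 94434356 to 94527272), was in neither list. It was at 88.0, 103 and 89.7 CPM with OVA NP, 57.0, 61.8 and 66.8 with soluble OVA, and 76.3, 76.5 and 62.6 with PBS (log2 fold change 0.61 ± 0.083, adjusted p = 0.00686). *Gm4070* was at 552, 610.4 and 608 CPM with OVA NP and 361, 391 and 421 with soluble OVA (adjusted p = 0.00686). It shares 92.9% of its 100-base windows with *Gvin1*, a very large interferon-inducible GTPase on the same chromosome, so its counts are uncertain.

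**Figure D2:**
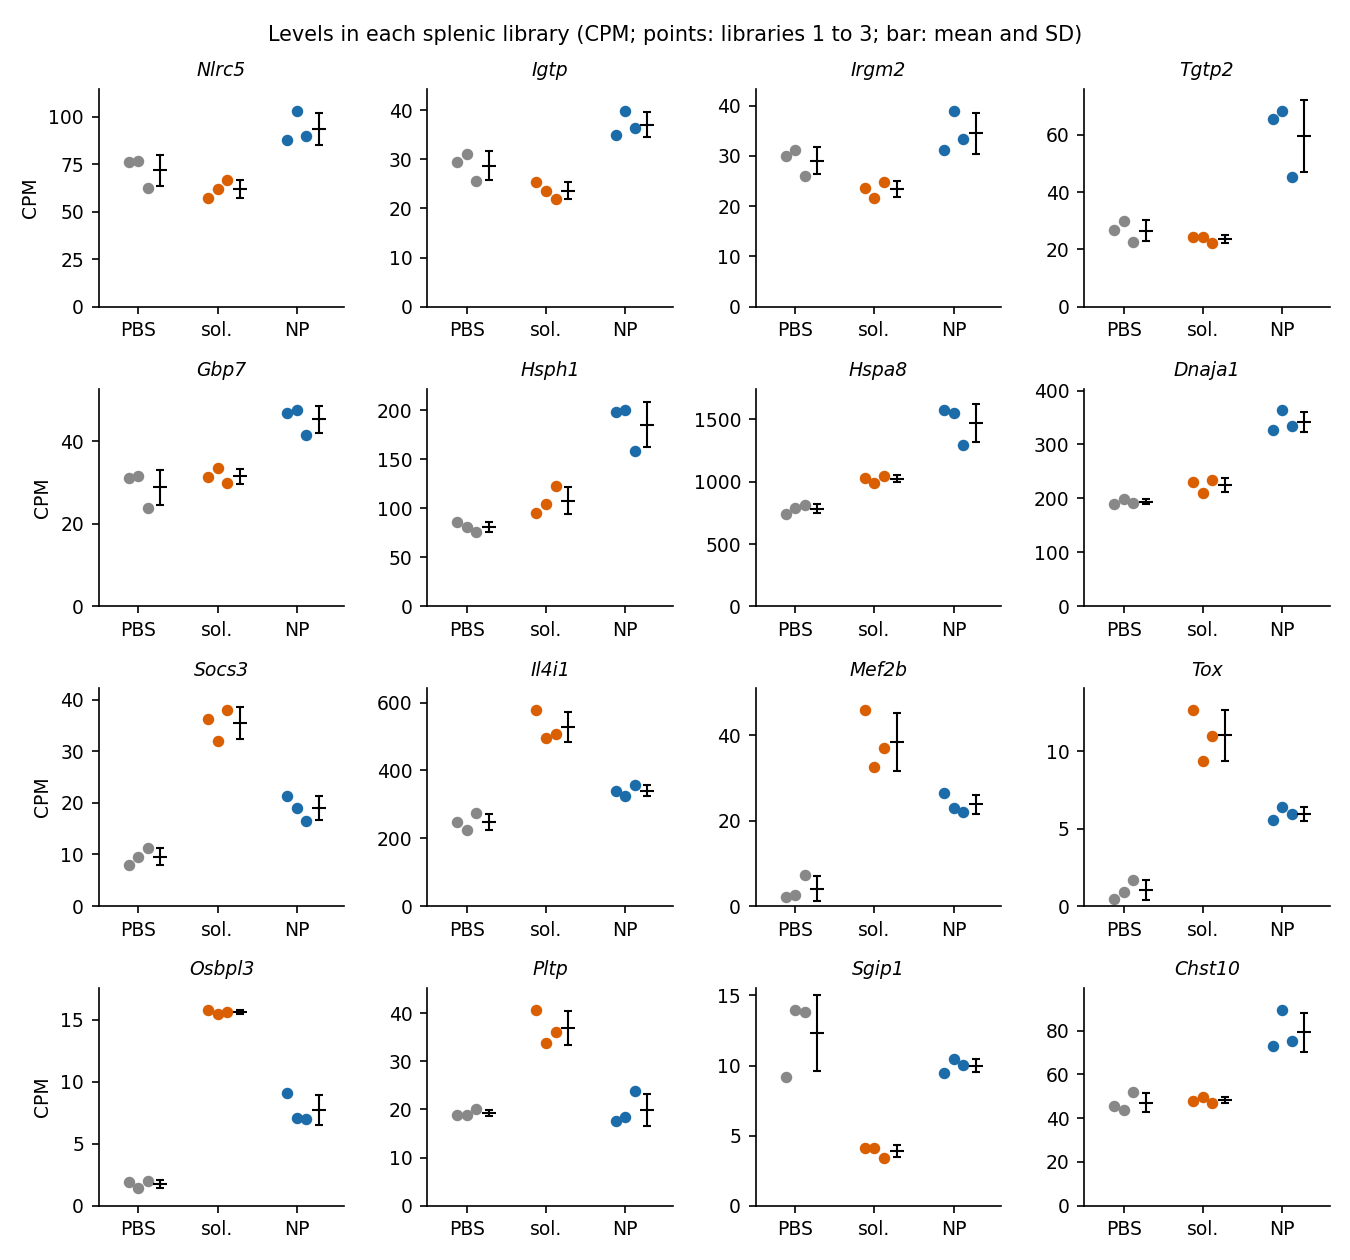
The 16 panels give the level in CPM of genes named in the text, with 1 point for each of the 3 libraries of PBS (grey), soluble OVA (orange), and OVA NP (blue) and the mean and SD beside them. In each panel the OVA NP and soluble OVA libraries do not overlap, and for *Socs3*, *Mef2b*, *Tox*, and *Osbpl3* the OVA NP libraries lie between those of PBS and soluble OVA.

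Chaperones were also among the genes that were higher. Of 11 tested heat shock and chaperone genes, 3 were DEGs, all higher, where 0.137% of all tested genes were. At an unadjusted p under 0.05, 6 were higher and 0 were lower, against 4.28% and 4.39% of all tested genes. All 11 had a log2 fold change above 0, with a median of 0.26. *Hsph1*, an HSP110 nucleotide exchange factor (chromosome 5, 149614287 to 149636376), was at 198, 199.8 and 159 CPM with OVA NP, 95.4, 105 and 123 with soluble OVA, and 85.9, 80.8 and 76.2 with PBS (log2 fold change 0.79 ± 0.11, adjusted p = 0.0184). *Dnaja1*, an HSP40 co-chaperone (chromosome 4, 40722150 to 40737149), was at 327, 363 and 335, 229.7, 210.4 and 235, and 191, 199.9 and 192 in the same order (log2 fold change 0.61 ± 0.073, adjusted p = 0.00419). *Hspa8*, the constitutive HSC70 (chromosome 9, 40800984 to 40810087), was at 1573, 1550.2 and 1298 with OVA NP, 1034, 992 and 1045 with soluble OVA, and 742, 792 and 814 with PBS (log2 fold change 0.53 ± 0.088, adjusted p = 0.0192). For all 3, the OVA NP libraries were highest, the soluble OVA libraries were in the middle, and the PBS libraries were lowest. The count of 3 was 1 without soluble OVA replicate 1, soluble OVA replicate 2, or OVA NP replicate 1 and 0 without OVA NP replicate 2.

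The processed pseudogene *Gm15459* was also a DEG (log2 fold change 0.56), and it shares 72.9% of its 100-base windows with *Hspa8*, so these 2 are not independent. Other chaperones did not pass the test. *Hsp90ab1*, the constitutive HSP90, was at 1966, 1889.5 and 1806 CPM with OVA NP and 1895, 1839.8 and 1769 with soluble OVA, a log2 fold change of 0.05 with an interval of -0.12 to 0.22. The stress-inducible HSP70 gene *Hspa1a* was at 1.94, 2.51 and 2.69 CPM with OVA NP and 0.391, 1.09 and 1.27 with soluble OVA, and *Hspa1b* was at 7.48, 10.7 and 4.10 and 4.07, 1.60 and 3.86. Their log2 fold changes of 1.43 and 1.20 were larger than those of the 3 DEGs and the groups did not overlap, but neither passed the test (adjusted p = 0.244 and 0.492), and they are near-identical copies of each other. Of 18 genes of protein folding in the endoplasmic reticulum, 0 were DEGs by edgeR or DESeq2, and all 18 intervals lay within 1.5-fold. At an unadjusted p under 0.05, 5 of these 18 were higher, against 4.28% of all tested genes. Their medians against PBS were 0.32 for OVA NP and 0.21 for soluble OVA.

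In 250 bases before the start, 1 of the 3 starts that RefSeq gives for *Dnaja1* held the heat shock pair (124 bases before it), which was present in 6.69% of all windows. *Hsph1* had no match to GAANNTTC at either of its 2 starts. Only this order of the units was searched, and the 6.69% covers this order only. Both *Hsph1* windows hold the units in the reverse order, TTC and then GAA with 2 bases between them. The search therefore does not show that *Hsph1* lacks a heat shock pair. How often the reverse order occurs in all windows was not tested.

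The remaining genes that were higher were of varied function. *Sgip1*, which takes part in clathrin-mediated endocytosis, was at 9.48, 10.4 and 10.1 CPM with OVA NP, 4.15, 4.10 and 3.42 with soluble OVA, and 9.20, 14.0 and 13.8 with PBS (log2 fold change 1.37 ± 0.16, adjusted p = 0.00419). Its level with soluble OVA was below both other groups, and against PBS its log2 fold change was -0.30 for OVA NP and -1.66 for soluble OVA. *Chst10*, a sulfotransferase that makes the HNK-1 carbohydrate, was at 72.9, 89.6 and 75.1 with OVA NP, 47.8, 49.7 and 46.9 with soluble OVA, and 45.3, 43.9 and 52.2 with PBS (log2 fold change 0.73 ± 0.085, adjusted p = 0.00419), so here soluble OVA was at the level of PBS. *Sgip1*, *Dnaja1*, and *Gm4070* stayed DEGs with 5 of the 6 libraries left out in turn, the most of any gene that was higher, and *Chst10* with 4. The means of *Banp*, a nuclear DNA-binding protein, were 52.1 CPM with OVA NP and 35.6 with soluble OVA (log2 fold change 0.56). *Abcg1*, which exports cholesterol, was at a mean of 85.1 CPM with OVA NP, 61.5 with soluble OVA, and 88.0 with PBS (log2 fold change 0.48 ± 0.076, adjusted p = 0.016). *Kctd12*, an auxiliary subunit of GABA-B receptors, had the same order with means of 256, 184, and 258, and 59.9% of its 100-base windows occur in the overlapping gene Gm26778.

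Antibody variable segments gave the other 3 DEGs, of which *Ighv4-2* is annotated as a pseudogene. Its means were 6.15 CPM with OVA NP and 2.27 with soluble OVA. Of 138 variable segments tested, 3 were DEGs, all higher (*Ighv4-2*, *Igkv1-88*, and *Igkv1-135*), against 0.137% of all tested genes. At an unadjusted p under 0.05, 36 were higher and 1 was lower, against 4.28% and 4.39%. The median log2 fold change was 0.31 for 52 heavy-chain variable genes and 0.25 for 83 kappa variable genes. *Igkv1-135* was at 75.4, 100.5 and 87.7 CPM with OVA NP, 54.5, 56.0 and 48.2 with soluble OVA, and 71.3, 68.8 and 68.7 with PBS (log2 fold change 0.74 ± 0.10, adjusted p = 0.00956). Segments of a family resemble each other, and the reference strain is not BALB/cJ, so single segments are uncertain. *Jchain*, which joins secreted IgM and IgA, was at 321, 314 and 293 CPM with OVA NP and 229.5, 207 and 266 with soluble OVA, and *Ighm* was at 3895, 4218 and 4233 and 3226, 3222 and 3309. The groups of both genes did not overlap, and neither passed the edgeR test (adjusted p = 0.105 and 0.149), although DESeq2 called both. *Xbp1*, the factor that drives antibody secretion, had a log2 fold change of 0.20 with an interval of 0.04 to 0.35, and *Prdm1*, which initiates the plasma cell program, one of 0.05 with -0.36 to 0.47. Of the 12 plasma cell genes tested, 0 were DEGs by edgeR and 1 by DESeq2 (*Jchain*). At an unadjusted p under 0.05, 4 of the 12 were higher, against 4.28% of all tested genes.

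Of the 14 genes that were lower with OVA NP, several were far higher with either form of OVA than with PBS. *Osbpl3*, an oxysterol-binding protein (chromosome 6, 50293330 to 50456201), was at 9.07, 7.07 and 6.96 CPM with OVA NP, 15.8, 15.4 and 15.7 with soluble OVA, and 1.90, 1.41 and 1.98 with PBS (OVA NP over soluble OVA, log2 fold change -1.02 ± 0.14, adjusted p = 0.00686). *Tox*, an HMG-box factor, was at 5.53, 6.39 and 5.95, 12.7, 9.41 and 11.0, and 0.486, 0.913 and 1.71 (log2 fold change -0.89 ± 0.16, adjusted p = 0.0326). In both genes the 3 groups did not overlap. *Mef2b* (chromosome 8, 70139711 to 70167488) was at 26.4, 22.9 and 22.1 CPM with OVA NP, 45.9, 32.5 and 37.0 with soluble OVA, and 2.21, 2.66 and 7.38 with PBS (log2 fold change -0.69 ± 0.12, adjusted p = 0.036). Against PBS, the log2 fold change of *Mef2b* was 2.56 for OVA NP and 3.25 for soluble OVA. *Sh3bgrl2* had means of 9.57, 15.5, and 1.35 CPM in the same order of groups and *St7* had means of 15.1, 23.8, and 7.99. *Tox* and *Mef2b* each stayed called with 1 of the 6 libraries left out in turn, and *Sh3bgrl2* with 0.

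Among the other lower genes, *Socs3*, an inhibitor of cytokine receptor signaling (chromosome 11, 117966079 to 117970047), was at 21.3, 19.0 and 16.6 CPM with OVA NP, 36.3, 31.9 and 38.0 with soluble OVA, and 7.87, 9.59 and 11.2 with PBS (log2 fold change -0.90 ± 0.11, adjusted p = 0.00419). *Samsn1*, an adaptor that restrains B cell activation, was at 164, 170.0 and 203, 307, 297 and 252, and 91.3, 85.9 and 99.3 (log2 fold change -0.66 ± 0.10, adjusted p = 0.0113). Both genes were thus above PBS with either form of OVA and highest with soluble OVA. *Sla*, an adaptor that limits antigen receptor signaling, was at 116, 109 and 122 CPM with OVA NP, 161, 159 and 165 with soluble OVA, and 175, 167 and 169 with PBS (log2 fold change -0.48 ± 0.066, adjusted p = 0.00686), so that OVA NP stood apart and soluble OVA was near PBS. *Pik3ip1*, an inhibitor of PI3 kinase, had the same order, with means of 26.8, 39.6, and 39.9 CPM (log2 fold change -0.56 ± 0.10, adjusted p = 0.034). *Hs3st1*, a heparan sulfate sulfotransferase, was also lowest with OVA NP, at means of 14.9, 27.5, and 23.6.

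*Il4i1*, a secreted oxidase of phenylalanine that interleukin 4 induces (chromosome 7, 44816387 to 44840809, plus strand), was at 339.9, 324 and 358 CPM with OVA NP, 578, 495 and 508 with soluble OVA, and 247, 224 and 273 with PBS (log2 fold change -0.62 ± 0.079, adjusted p = 0.00609). The OVA NP libraries lay between PBS and soluble OVA, and the gene stayed a DEG with 5 of the 6 libraries left out in turn. *Tbc1d17*, a regulator of Rab GTPases on the opposite strand, overlaps *Il4i1* and was also lower (log2 fold change -0.39 ± 0.067, adjusted p = 0.0265). Transcripts of the pair share 69.2% of the 100-base windows of *Il4i1*, and whether the counting used strand is not given in the sources used here, so the 2 calls are not independent. *Pltp*, which transfers phospholipids between lipoproteins, was at 17.6, 18.4 and 23.8 CPM with OVA NP, 40.7, 33.9 and 36.0 with soluble OVA, and a mean of 19.2 with PBS (log2 fold change -0.87 ± 0.12, adjusted p = 0.00686), which put OVA NP at the level of PBS. *Gm49388* had 0 counts in all 3 OVA NP libraries and a mean of 1.10 CPM with soluble OVA, at least 7.03-fold lower when the OVA NP libraries are set to 3 counts each. It overlaps *Setd1a* and *Hsd3b7* on the same strand, and 96.5% of its windows also occur in other genes, so its counts are uncertain.

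Of the germinal center genes, 1 passed the test. All 15 tested genes had a log2 fold change below 0 with a median of -0.45, 1 was a DEG (*Mef2b*), and 8 were lower at an unadjusted p under 0.05, against 4.39% of all tested genes. DESeq2 called 3, *Mef2b* and *Nuggc* among them. Summed over the list, the OVA NP libraries were at 673, 647 and 589.5 CPM and the soluble OVA libraries at 952, 652 and 809.5, so that the groups overlapped. *S1pr2*, which confines cells to the germinal center, was at 46.6, 41.5 and 38.2 CPM with OVA NP, 58.9, 42.2 and 52.5 with soluble OVA, and 3.93, 3.44 and 12.0 with PBS (adjusted p = 0.517). *Bcl6* was at 99.9, 113 and 111 and 123, 112 and 115 with the 2 forms, a log2 fold change of -0.10 with an interval of -0.25 to 0.06. The soluble OVA libraries were unequal, with replicate 2 closest to the OVA NP libraries in *S1pr2* and *Bcl6*. The median was -0.29 without soluble OVA replicate 1 and -0.59 without soluble OVA replicate 2, where 4 members were DEGs, while 0 were DEGs in each of the other 5 fits that left out a library. Against PBS the medians were 2.47 for OVA NP and 2.99 for soluble OVA, so that both forms were far above PBS. Of 25 DNA replication genes and 20 mitosis genes, 0 were DEGs by edgeR or DESeq2, 0 were higher and 1 and 2 were lower at an unadjusted p under 0.05, and the intervals of 25 and 19 lay within 1.5-fold. The log2 fold change was below 0 for 20 of the 25 and 18 of the 20, with medians of -0.05 and -0.14.

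No heavy-chain constant region was a DEG by edgeR among 8 tested, while DESeq2 called *Ighm* higher and *Ighg2b* lower. At an unadjusted p under 0.05, 1 was higher and 2 were lower, against 4.28% and 4.39% of all tested genes. *Ighg1* was at 435, 480.2 and 386 CPM with OVA NP, 665, 443 and 692 with soluble OVA, and 26.3, 20.9 and 51.2 with PBS, a log2 fold change of -0.46 ± 0.17 between the 2 forms (adjusted p = 0.5). The soluble OVA libraries 1 and 3 were above all OVA NP libraries and library 2 was within their range. *Ighg2b* was at 13.4, 17.1 and 17.5 CPM with OVA NP and 34.0, 20.9 and 31.4 with soluble OVA, without overlap, and did not pass the test (adjusted p = 0.155). *Ighe*, the constant region of the allergic antibody, was at 9.42, 15.3 and 11.9 with OVA NP and 15.1, 6.66 and 15.4 with soluble OVA, with an interval of the log2 fold change of -0.83 to 0.79, too wide to exclude a difference in either direction.

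Genes of cholesterol synthesis had slightly lower values with OVA NP, and no single gene passed the test. Of 18 tested, 0 were DEGs by edgeR or DESeq2, and all 18 were below 0, with a median of -0.22. At an unadjusted p under 0.05, 9 were lower, against 4.39% of all tested genes. The medians against PBS were 0.33 for OVA NP and 0.55 for soluble OVA. *Insig1*, a sterol sensor, was at 30.0, 28.3 and 32.8 CPM with OVA NP, 40.3, 37.5 and 42.2 with soluble OVA, and 28.1, 24.6 and 29.7 with PBS (adjusted p = 0.11). *Abca1*, the other main cholesterol exporter beside the DEG *Abcg1*, was at 169, 177 and 179 with OVA NP and 116, 134 and 154 with soluble OVA (log2 fold change 0.39, adjusted p = 0.155). It was chosen after its values were seen.

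**Figure D3:**
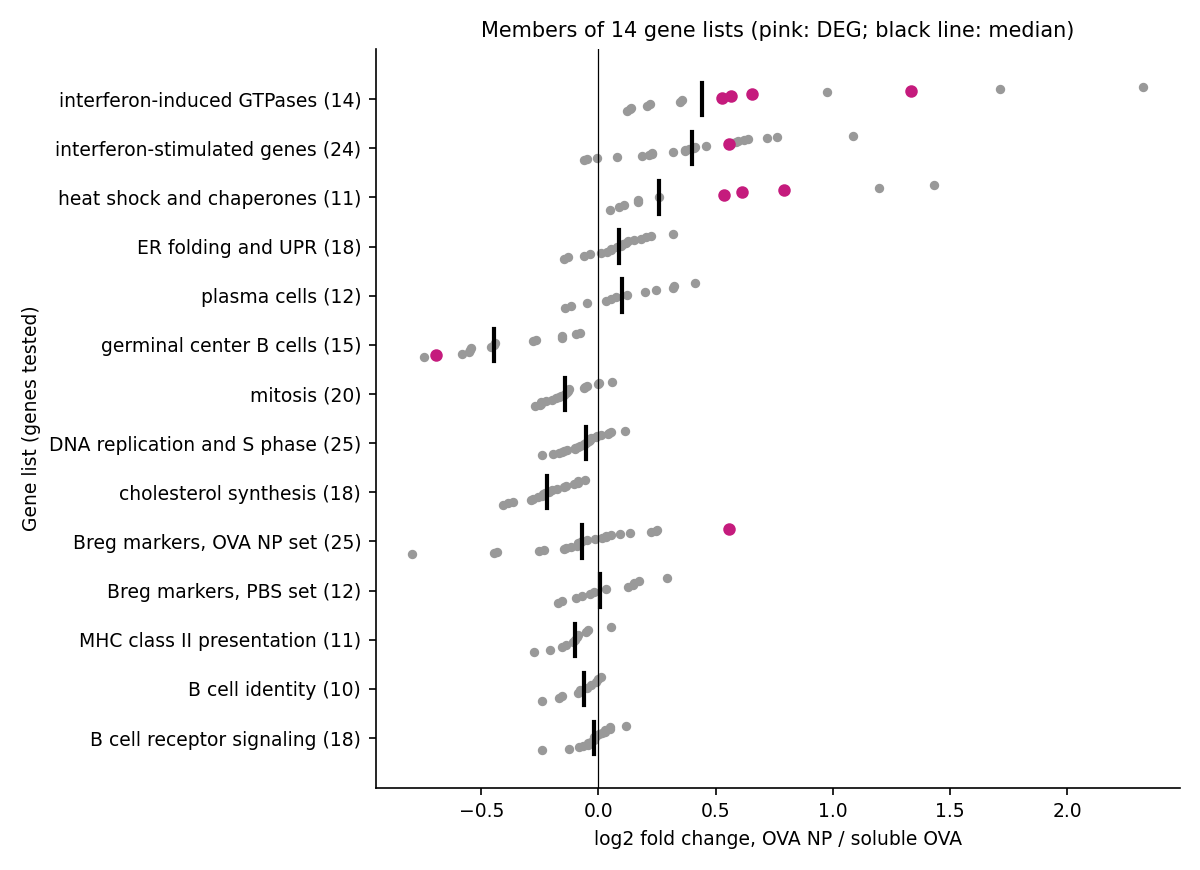
Each point is a tested gene of 1 of 14 lists, placed by its log2 fold change of OVA NP over soluble OVA, with DEGs in pink and the median of the list as a black line. The medians of both interferon lists are at 0.44 and 0.40 and that of the germinal center list is at -0.45, while most other lists lie near 0.

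Regulatory B cells (Bregs) restrain immune responses, mainly by releasing interleukin 10. The Breg markers used here are those that the text of the study names for OVA NP against PBS, which are a part of its sets. Of 25 tested markers named for OVA NP, 1 was a DEG and the median log2 fold change was -0.07. At an unadjusted p under 0.05, 3 were higher and 3 were lower, against 4.28% and 4.39% of all tested genes. The intervals of 17 lay within 1.5-fold, a share near the 69.6% of all tested genes. *Sh2d1b1*, an adaptor of SLAM-family receptors, had the lowest value of the set, a log2 fold change of -0.79 (adjusted p = 0.353). Of 12 markers named for PBS, 0 were DEGs by edgeR or DESeq2, 1 was lower at an unadjusted p under 0.05, and 11 intervals lay within 1.5-fold. Against PBS, the markers named for OVA NP had medians of 0.58 for OVA NP and 0.47 for soluble OVA, and those named for PBS had medians of -0.48 and -0.55. The study chose both sets on the OVA NP and PBS libraries used here, so their direction against PBS is not independent evidence. *Zbtb32*, a repressor active in B cells that have met antigen, was at 22.5, 19.1 and 23.0 CPM with OVA NP, 22.2, 20.5 and 25.5 with soluble OVA, and 12.4, 14.0 and 17.1 with PBS. *Lipc*, which encodes hepatic lipase, was at 8.18, 7.07 and 8.16 with OVA NP, 11.9, 8.32 and 11.4 with soluble OVA, and 2.39, 2.66 and 2.49 with PBS (adjusted p = 0.446). *Nt5e*, which encodes the adenosine-forming enzyme CD73, was at 9.95, 8.96 and 10.9, 12.6, 9.15 and 13.4, and 4.11, 4.48 and 5.53. The values of both forms lay above those of PBS in each of these 3 genes. *Il10* had 1, 2, and 9 counts with OVA NP, 0, 1, and 1 with soluble OVA, and 3, 2, and 1 with PBS and was not tested. *Havcr1*, which encodes the Breg surface protein TIM-1, was at 11.3, 9.93 and 11.9 CPM with OVA NP and 19.3, 14.7 and 17.8 with soluble OVA and did not pass the edgeR test (adjusted p = 0.0838), although DESeq2 called it. *Tgfb1* and *Cd274*, which encode the inhibitory factors TGF-β1 and PD-L1, had intervals of -0.04 to 0.28 and -0.14 to 0.20.

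Several other programs of B cells lay within 1.5-fold between the 2 forms. All 18 genes of B cell receptor signaling, all 11 of MHC class II presentation, all 14 NF-κB subunits and feedback genes, and all 14 glycolysis genes had intervals within 1.5-fold, as had 69.6% of all tested genes. Neither edgeR nor DESeq2 called any of them. In the same order, 11 of 18, 10 of 11, 5 of 14, and 10 of 14 genes had a log2 fold change below 0. The median of the MHC class II genes was -0.10. At an unadjusted p under 0.05 the counts of higher and lower genes were 0 and 1, 0 and 2, 2 and 1, and 1 and 0. Of all tested genes, 4.28% were higher and 4.39% lower at that p. Markers of follicular B cells, which recirculate, lay within 1.5-fold in 10 of 10 genes, and those of marginal zone B cells, which respond to blood-borne antigens, in 9 of 10. Of 9 ligands for T cells, 0 were DEGs by edgeR, and DESeq2 called 1, the activation marker *Cd83*. *Cd83* was at 439, 434 and 483 CPM with OVA NP and 583, 564 and 529.9 with soluble OVA, a log2 fold change of -0.30 with an interval of -0.46 to -0.14 (edgeR adjusted p = 0.198).

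Other cells and background transcripts moved with some of these libraries. Summed over 18 monocyte and macrophage markers, the OVA NP libraries were at 219.7, 177 and 72.6 CPM and the soluble OVA libraries at 87.4, 116 and 60.1. Summed over 10 neutrophil markers they were at 650.2, 529 and 185 and 355, 517 and 279.7, with the neutrophil marker *Ly6g* at 0 in all 6. Neither list held a DEG by edgeR, DESeq2 called 1 (*Ace*, a surface peptidase), and both sums overlapped (exact two-sided permutation p = 0.3 and 0.7, where 0.1 is the smallest that 3 against 3 libraries allow). Of the monocyte and macrophage markers, 11 were tested and all 11 were above 0, with a median of 0.62 and 3 at an unadjusted p under 0.05. Of the neutrophil markers, 7 were tested and all 7 were above 0, with 0 at that p. Of all tested genes, 4.28% were higher at that p. The neutrophil sum came mainly from *Mpo* and *Elane*, which are made by early precursors. OVA NP replicate 3 had neutrophil and monocyte sums within or below the range of soluble OVA. Summed over the 14 GTPases, the OVA NP libraries were at 636, 709 and 716 CPM and the soluble OVA libraries at 543, 548 and 529.7. Replicate 3 thus had the highest GTPase sum of the 6 libraries, as it had the highest antiviral sum, while its *Tgtp2*, *Hsph1*, and *Hspa8* were the lowest of the OVA NP libraries. The T cell markers *Cd3d* and *Trac* were under 0.2 CPM in each of the 6 libraries, and other members of that list were higher. *Cd3g* was at 1.12, 0.913 and 1.01 CPM with OVA NP and 1.02, 2.24 and 1.05 with soluble OVA. *Lck* was at 63.8, 70.7 and 83.4 and 84.1, 82.7 and 71.1. The sums of T cell, NK cell, dendritic cell, erythroid, and platelet markers overlapped between the groups.

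Transcripts of 2003 olfactory and vomeronasal receptor genes, which B cells do not use, summed to 187, 107 and 62.8 CPM with OVA NP and 62.2, 330.1 and 37.0 with soluble OVA. With this sum as a covariate, 30 genes were DEGs, of which 26 were among the 33. Without the 3 libraries in which it was highest (soluble OVA replicate 2 and OVA NP replicates 1 and 2), 42 were DEGs, of which 9 were among the 33, from 1 OVA NP library against 2, in which the lone library is assumed to vary like the others. All 33 kept their direction in both fits, which in the second largely follows from groups that do not overlap. The part of these transcripts and of other cells in the DEGs was not otherwise tested.

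**Figure D4:**
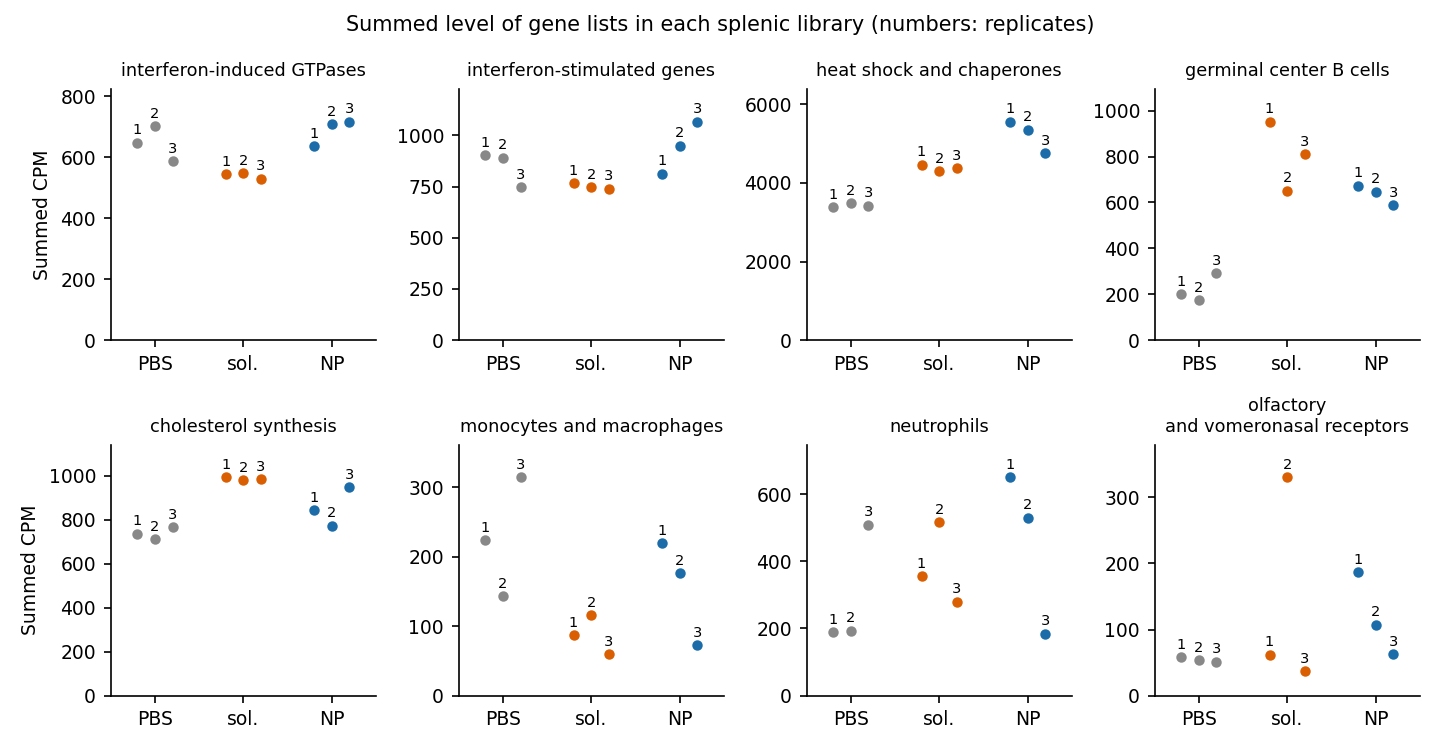
Each panel gives the summed level in CPM of 1 gene list in the 9 splenic libraries, with the replicate number above each point. Both interferon sums of the 3 OVA NP libraries lie above those of soluble OVA, whereas the monocyte, neutrophil, and receptor sums overlap.

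The same 2 treatments differed more in Peyer's patch B cells of this series, where 4697 of 15599 genes were DEGs (30.1%). Of the 33 splenic DEGs, 32 were tested there, 15 were DEGs with the same sign and 5 were DEGs with the opposite sign. Tested directly, the effect differed between the tissues for 18 of the 33 genes, where the background was 16.9% of 16471 genes. The 33 were called on the splenic libraries that also enter this test, so their share is not comparable with the background. The fit treats all libraries as separate, and the labels do not say whether both tissues came from the same mice. *Igtp*, *Tgtp2*, *Osbpl3*, *Mef2b*, *Tox*, *Sgip1*, and *Banp* had the same sign in both tissues and no detected difference between them. The log2 fold changes in Peyer's patch were 1.52 for *Tgtp2*, -0.97 for *Osbpl3*, and -0.99 for *Mef2b*. For *Hspa8* and *Hsph1*, the Peyer's patch values were -0.06 and 0.15, and for *Il4i1*, *Samsn1*, and *Sla* they were 0.66, 0.88, and 0.84, opposite to the spleen.

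**Figure D5:**
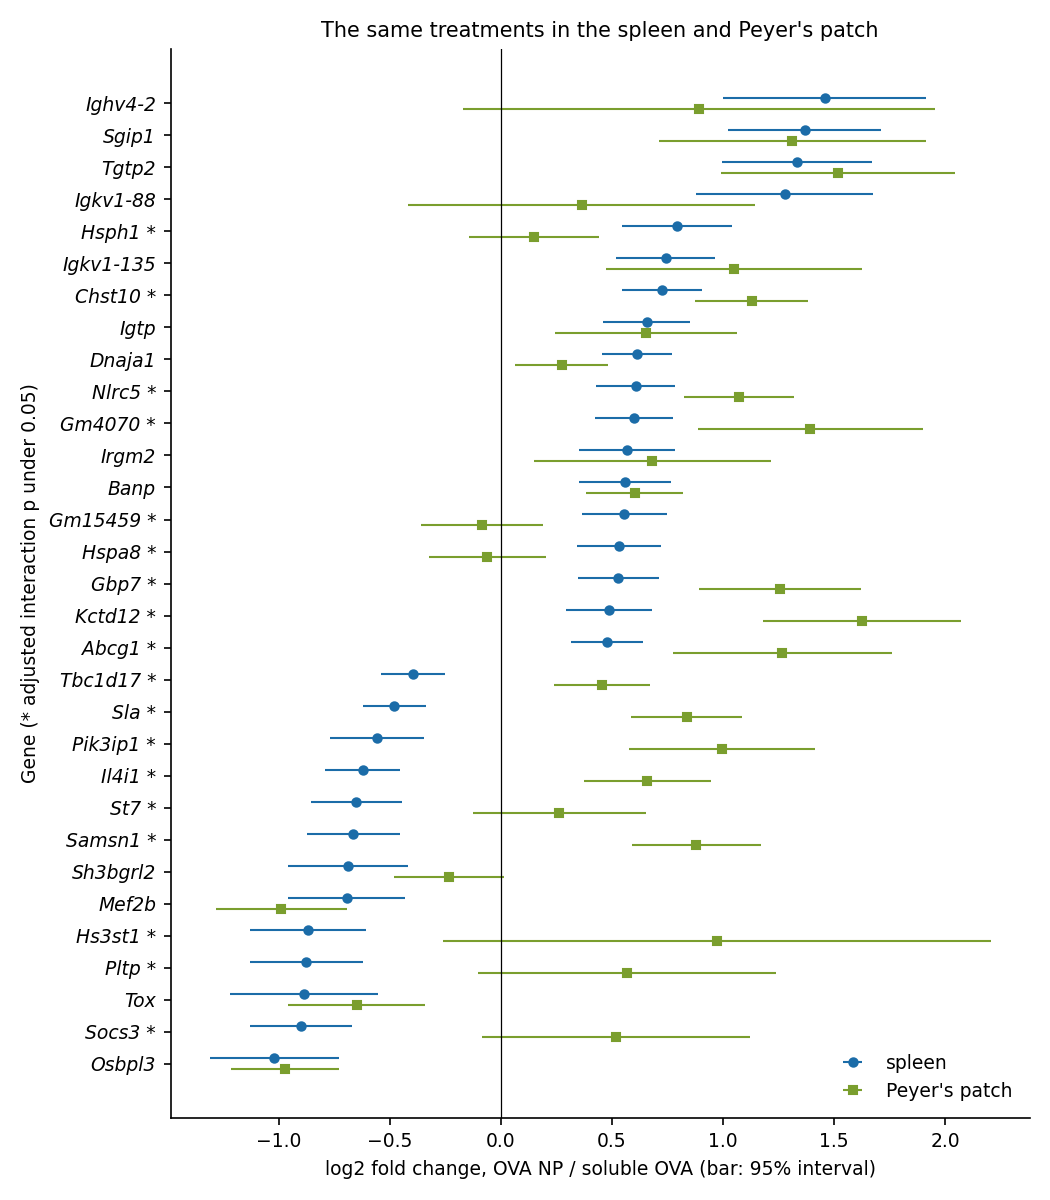
For 31 splenic DEGs, the log2 fold change of OVA NP over soluble OVA is given with its 95% interval in the spleen (blue circles) and Peyer's patch (green squares), and an asterisk marks an adjusted p under 0.05 for the difference between tissues. *Igtp*, *Tgtp2*, and *Osbpl3* lie together in both tissues, and 9 genes that were lower in the spleen lie above 0 in Peyer's patch.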

How the data were processed

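Poly(A) RNA of isolated B cells was sequenced after NEBNext library preparation. Per the labels and the study's methods, the authors trimmed reads with Cutadapt (2.3), checked them with FastQC (0.11.8) and MultiQC (1.7), aligned them with STAR (2.7.8a) to GRCm38, and deposited RSEM (1.3.3) expected counts per gene for 55491 rows, all of them whole numbers. Multi-mapping reads are divided between genes by RSEM, so genes with shared sequence are uncertain. Here, the 3 OVA NP and 3 soluble OVA libraries of the spleen were compared with the quasi-likelihood test of edgeR (4.0.16, R 4.3.3) after TMM normalization and filterByExpr (minimum count 10, minimum total 15), p-values adjusted by Benjamini-Hochberg across the tested genes, an adjusted p of 0.05, and a log2 fold change of 0.25. The same test was run against PBS and, as an interaction, between tissues. CPM were scaled by TMM over the 9 splenic libraries, which held between 15670042 and 26167308 counts, and 3 counts corresponded to 0.115 to 0.191 CPM. DESeq2 (1.42.0) and the other alternatives are described in the closing section. Scripts were tested on simulated counts.

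Of the 33 DEGs, 1 is not reported here by name, nor are a few list members. The rule took up to 12 in each direction by fold change, with a mean of at least 1 CPM and no overlap between groups, and up to 5 by p, without variable segments and unnamed genes. It gave 24, and the others (*Abcg1*, *Kctd12*, *Tbc1d17*, *Gm4070*, *Gm15459*, *Gm49388*, and 3 variable segments), as well as the list members named without a call, were chosen after their values were seen. The members and gene lists were chosen with earlier results of these data known. Shared sequence was counted in 100-base windows of GENCODE M21 transcripts on GRCm38, whose release differs from the authors', and gene coordinates are from the same annotation.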

Additional observations from a re-analysis of the deposited data

Results flagged for a closer look

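The effect of OVA NP over soluble OVA differed between splenic and Peyer's patch B cells for 2788 of 16471 genes, tested as an interaction in edgeR with 3 libraries per group and tissue. Among the 33 splenic DEGs, 18 had such a difference, given here as the splenic minus the Peyer's patch log2 fold change. The 33 were called on the same splenic libraries, so their share cannot be set against that of all genes.

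Of the 3 chaperone DEGs, *Hspa8* and *Hsph1* had Peyer's patch intervals that included 0, with differences of 0.59 for *Hspa8* (adjusted p = 0.0171), 0.63 for *Hsph1* (adjusted p = 0.0484), and 0.63 for the pseudogene *Gm15459* that shares sequence with *Hspa8*. *Dnaja1* had a log2 fold change of 0.27 in Peyer's patch, and its difference of 0.33 did not pass the test (adjusted p = 0.089). Several genes that were lower in the spleen had fold changes above 0 in Peyer's patch. The difference was -1.33 for *Sla* (adjusted p = 6.93e-05), -1.56 for *Samsn1* (adjusted p = 0.000351), -1.57 for *Pik3ip1*, -1.29 for *Il4i1*, and -0.86 for *Tbc1d17*, and these 5 were DEGs in both tissues with opposite signs. It was -1.43 for *Socs3*, -1.46 for *Pltp*, -0.92 for *St7*, and -1.86 for *Hs3st1*, which had fold changes above 0 in Peyer's patch and were not DEGs there.

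Other genes were higher in both tissues and differed in size, with larger fold changes in Peyer's patch. The difference was -0.74 for the GTPase *Gbp7*, -0.48 for *Nlrc5*, and -0.80 for *Gm4070*, which shares sequence with *Gvin1*. It was -0.80 for *Abcg1*, -0.42 for *Chst10*, and -1.16 for *Kctd12*. Spleens and Peyer's patches hold different shares of B cell states, and whether cell composition or expression per cell differed cannot be told apart in bulk libraries.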

How the results depend on the processing

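All 33 DEGs kept their direction under every alternative in which they were tested. For the fits that left out libraries, this largely follows from groups that do not overlap. The count of 33 (19 higher, 14 lower) was 83 with DESeq2 (45 and 38), 78 with its shrunken fold changes (42 and 36), and 230 without a count filter (127 and 103). It lay between 28 and 44 with all 9 splenic libraries in the fit, DESeq2 size factors, immunoglobulin genes removed, no fold change cutoff, a minimum of 10 counts in each library, or the receptor covariate chosen after seeing the data. Leaving out 1 library gave 0 to 40 DEGs, 0 to 25 higher, and 0 to 23 lower, with the libraries named beside the count. In the same fits DEGs ranged from 0 to 4 among interferon-induced GTPases, of which DESeq2 called 5, 0 to 1 among antiviral genes, 0 to 3 among chaperones, and 0 to 4 among germinal center genes, of which DESeq2 called 3. The 4 list medians kept their sign in each of these fits. The differences between tissues were 1924 to 2814 when a library was left out and 3152 with all 18 libraries.

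Same-numbered libraries of the 2 groups are not known to share more than a number. Their deviations correlated at -0.058, 0.036, and 0.14, and those of differently numbered libraries at -0.18 to 0.17. With 3 libraries per group, these values cannot exclude that same-numbered libraries share something. With the replicate number as a block, the count was 32, 27 of them among the 33, and the tissue differences were 2124. The cause of the changes between tools was not tested. With 3 libraries per group, the median interval of a fold change reached 0.23 to either side. This width is not the limit of detection, because the intervals are not adjusted for the number of genes tested and the DEG calls are. Larger fold changes also failed the edgeR test, such as -0.56 for *Cirbp* (adjusted p = 0.0628) and -0.64 for *Havcr1* (adjusted p = 0.0838). *Tbc1d17* passed it at -0.39, so the smallest detectable difference varied between genes.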

Other observations

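Genes that respond to mild cold or heat lay on either side of 0. *Cirbp*, a cold-inducible RNA-binding protein whose transcript falls at higher temperature, was at 85.1, 86.1 and 99.1 CPM with OVA NP, 156, 128 and 117 with soluble OVA, and 159.5, 167 and 171 with PBS. The OVA NP libraries lay below all others without overlap, and the gene was just outside the threshold (log2 fold change -0.56 ± 0.10, edgeR adjusted p = 0.0628). *Rbm3*, the related cold-inducible gene, had a log2 fold change of -0.27 (adjusted p = 0.411). The HSP90 co-chaperones *Chordc1* and *Stip1*, which were in none of the lists, had log2 fold changes of 0.34 and 0.30 (adjusted p = 0.0711 and 0.149). *Cirbp* also varies with the time of day. Of 10 circadian clock genes tested, 0 were DEGs by edgeR. At an unadjusted p under 0.05, 2 were higher and 1 was lower, against 4.28% and 4.39% of all tested genes. The log2 fold change was 0.33 for *Cry1*, 0.21 for *Per2*, and -0.30 for *Nr1d2*, while *Per1* had one of 0.00. A difference in the time of day was not tested. All genes of this paragraph were chosen after their values were seen.

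Of the genes nearest to the threshold, *Mef2b*, *Sh3bgrl2*, and *Kctd12* were the last inside it (adjusted p = 0.036, 0.0426, and 0.0444). The first outside it included *Cpt1a*, the rate-limiting enzyme of mitochondrial fatty acid import, at 170.2, 149 and 182 CPM with OVA NP and 218, 228 and 224 with soluble OVA (log2 fold change -0.41, adjusted p = 0.0541).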
